A study of Homo sapiens with 6 samples.

Results

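The ATP-binding cassette (ABC) transporter genes of the glioblastoma line U87 were compared between cells in which a retrovirus was used to silence Caspase-8 (shC8, 3 libraries) and cells given a retroviral scramble control (shCTR, 3 libraries). Members were all gene symbols of the deposited expression table that read ABCA, ABCB, ABCC, ABCD, ABCE, ABCF or ABCG followed by a number. The table lists 46 such symbols, and 45 of its 23290 genes were kept as members. The one left out, ABCC13, is annotated as a pseudogene and was listed at 0 in every library. Another 4 symbols carry a pseudogene suffix (ABCA11P, ABCA17P, ABCC6P1 and ABCC6P2) and were left out as well. Genes of the same protein family with other symbols, TAP1, TAP2 and CFTR, were read separately. Counts and sums by subfamily thus go by symbol, leave these genes out and do not cover whole subfamilies.

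U87 is an established human glioma line grown here as a culture in serum, so it is neither a tumour nor a mixture with blood-brain barrier endothelium, where several of these pumps are best known. Both groups were infected with a retrovirus and grown in DMEM with 10% FBS. How many hairpins were used, and their sequence, is not given in the sources used here. Expression is given as FPKM, fragments scaled to gene length and to the mapped fragments of the library, with 1 value per gene and library.

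ABC proteins use ATP bound at a conserved nucleotide-binding domain to move lipids, peptides, metals, metabolites or drugs across membranes. Subfamily ABCA moves mainly lipids and ABCB moves drugs, phospholipids, peptides and mitochondrial substrates. Subfamily ABCC holds the multidrug resistance proteins (MRPs) and the sulfonylurea receptors, and ABCD holds peroxisomal and lysosomal carriers. ABCE and ABCF proteins lack membrane domains and act in translation, while ABCG moves sterols and drugs. The products of ABCB1 (P-glycoprotein), ABCC1 (MRP1) and ABCG2 (breast cancer resistance protein) are the classical efflux pumps of chemotherapy resistance.

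The libraries summed to between 489055 and 516634 FPKM, with values above 0 for 16326 to 17024 genes. How deeply each library was sequenced is unknown. The step between the smallest values gave 1.08 to 1.21 times the depth of shCTR 1 for the other 5. CASP8, the gene targeted by the vector, had 4.39, 4.46 and 4.44 FPKM in shC8 1, 2 and 3, against 15.1, 14.9 and 13.4 FPKM in shCTR 1, 2 and 3. An exact two-sided permutation test of CASP8 gave p = 0.1, the smallest value that 3 against 3 libraries allow. Of 13 markers of U87 and mesenchymal glioma cells, 10 averaged at least 1 FPKM, with VIM at 3790 FPKM in shC8 and 4320 FPKM in shCTR, while the glial markers SOX2, GFAP and S100B stayed under 1 FPKM. CDKN2A, CDKN2B and MTAP, deleted in U87, were at or near 0 (summed level 0 in each shC8 library and at most 0.0302 FPKM in a shCTR library). Of 8 blood cell markers 2 averaged at least 1 FPKM and 4 were at 0, CD3E, HBA1 and HBB among them. The sum over all 8, 137 to 153 FPKM in shC8 libraries and 150 to 158 FPKM in shCTR libraries, was mostly the lysosomal gene CD68, at 143 FPKM in shC8 and 153 FPKM in shCTR. Of 5 neuron markers 3 averaged at least 1 FPKM, with sums of 21.5 to 24.4 FPKM in shC8 and 21.4 to 26.5 FPKM in shCTR, mostly SNAP25. The leukocyte gene PTPRC averaged 0.0443 FPKM in shC8 and 0.00646 FPKM in shCTR, the endothelial gene PECAM1 0.0687 FPKM in shC8 and 0.159 FPKM in shCTR, and the hepatocyte gene ALB 0.0909 FPKM in shC8 and 0.0381 FPKM in shCTR. The 5 endothelial markers summed to 1.0 to 1.15 FPKM in shC8 libraries and 0.871 to 1.14 FPKM in shCTR libraries.

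Of the 45 ABC genes, 25 were expressed, meaning that their 6 libraries averaged 1 FPKM or more. Another 4 lay between 0.1 and 1 FPKM, 13 were above 0 but under 0.1 FPKM, and 3 were listed at 0 in every library (ABCC8, ABCC12 and ABCG5). Just under the threshold stood ABCC6 with 0.751 FPKM, and just above it ABCA7 with 1.09 FPKM. All 3 members of ABCF and the single member of ABCE were expressed, as were 3 of 4 in ABCD, 7 of 11 in ABCC, 5 of 9 in ABCB, 5 of 12 in ABCA and 1 of 5 in ABCG. The genes of the translation proteins ABCE1 and ABCF1 to ABCF3 made up 31.1% and 24.0% of the summed FPKM of all members.

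**Figure D1:**
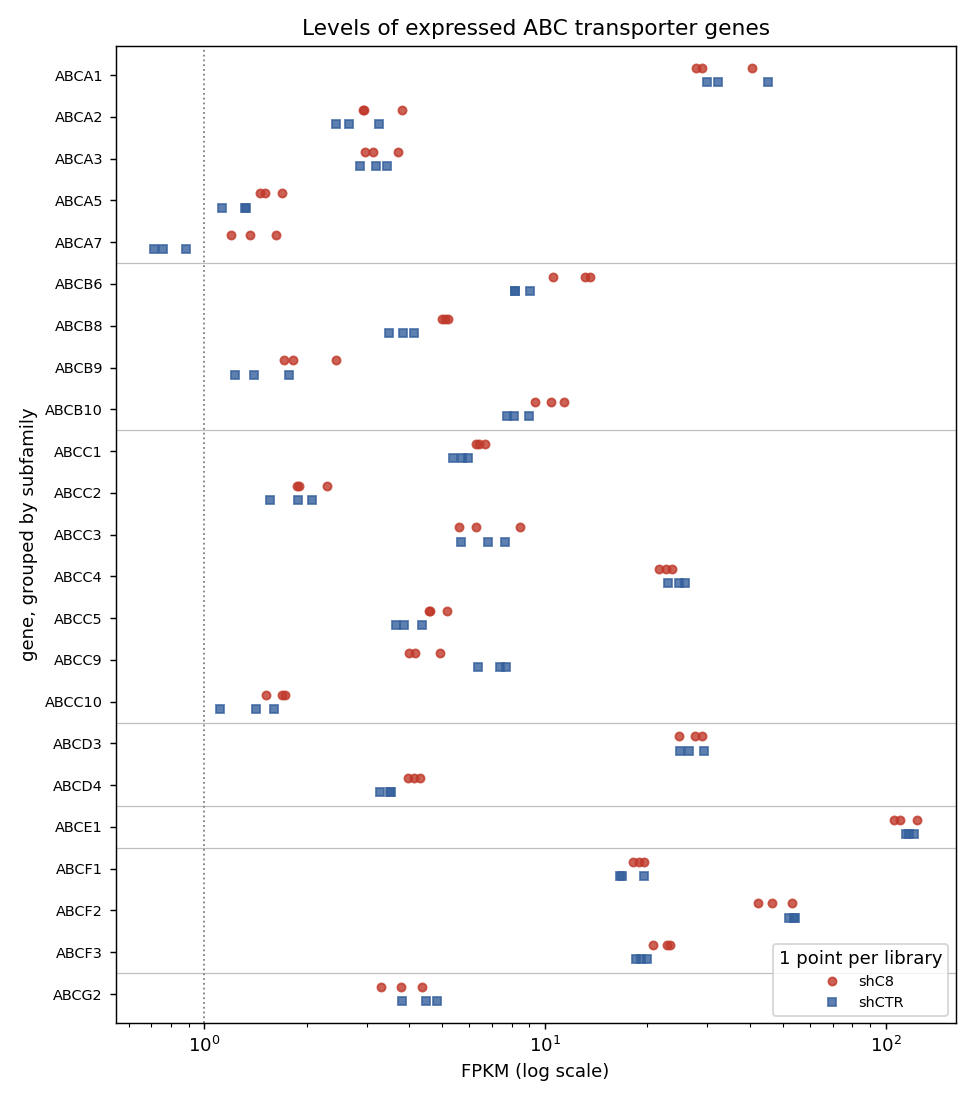
FPKM of 23 of the 25 expressed ABC genes on a log axis, 1 point per library (circles: shC8, squares: shCTR), grouped by subfamily, with a dotted line at 1 FPKM. ABCE1 lies highest, above 100 FPKM in all 6 libraries, and the points of ABCC9 in shC8 lie left of all its shCTR points.

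Among the 25 expressed genes, 3 rose in shC8 (ABCA7, ABCB6 and ABCB8), 1 fell (ABCC9) and 21 did not pass. The test was limma's moderated test on log2(FPKM + 1), adjusted by the Benjamini-Hochberg method over all 11598 genes that averaged at least 1 FPKM, with a threshold of 0.05. No shCTR library reached 1 FPKM for ABCA7, which entered the test through shC8, the group where it is higher, so its call adds nothing to the count. Over all tested genes 12.1% passed, 7.14% as rises and 4.94% as falls, and 4 of 25 ABC genes is near that share. So is 3 of the 24 that reached 1 FPKM in every library, which leaves out ABCA7. Of all calls 59.1% were rises, against 49.4% after quantile normalization and 46.2% when columns were scaled by median of ratios. Groups did not overlap for 11 of the 25 ABC genes, 10 of them higher, ABCA7 included, and 1 lower in shC8. Over all tested genes 21.7% lay higher without overlap and 13.1% lower. The median change of the 25 genes was 0.155, against 0.0376 over all tested genes, and with median-of-ratios scaling it was 0.121 against 0.00265. The order turned when a mean of 5 FPKM was required (0.00556 for 13 ABC genes, against 0.0283), and the medians were 0.0175 and 0.0154 with low genes kept in the fit. Positive changes, that of ABCA7 included, were seen for 19 of the 25, 76% against 57.9% of all tested genes. In bulk RNA, fewer cells with a transcript and less transcript per cell cannot be told apart.

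With the replicate number as a block, 6 ABC genes rose and 1 fell. The added rises included ABCB10 and ABCF3. Under that fit 26.6% of all tested genes passed, 16.1% as rises and 10.6% as falls.

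**Figure D2:**
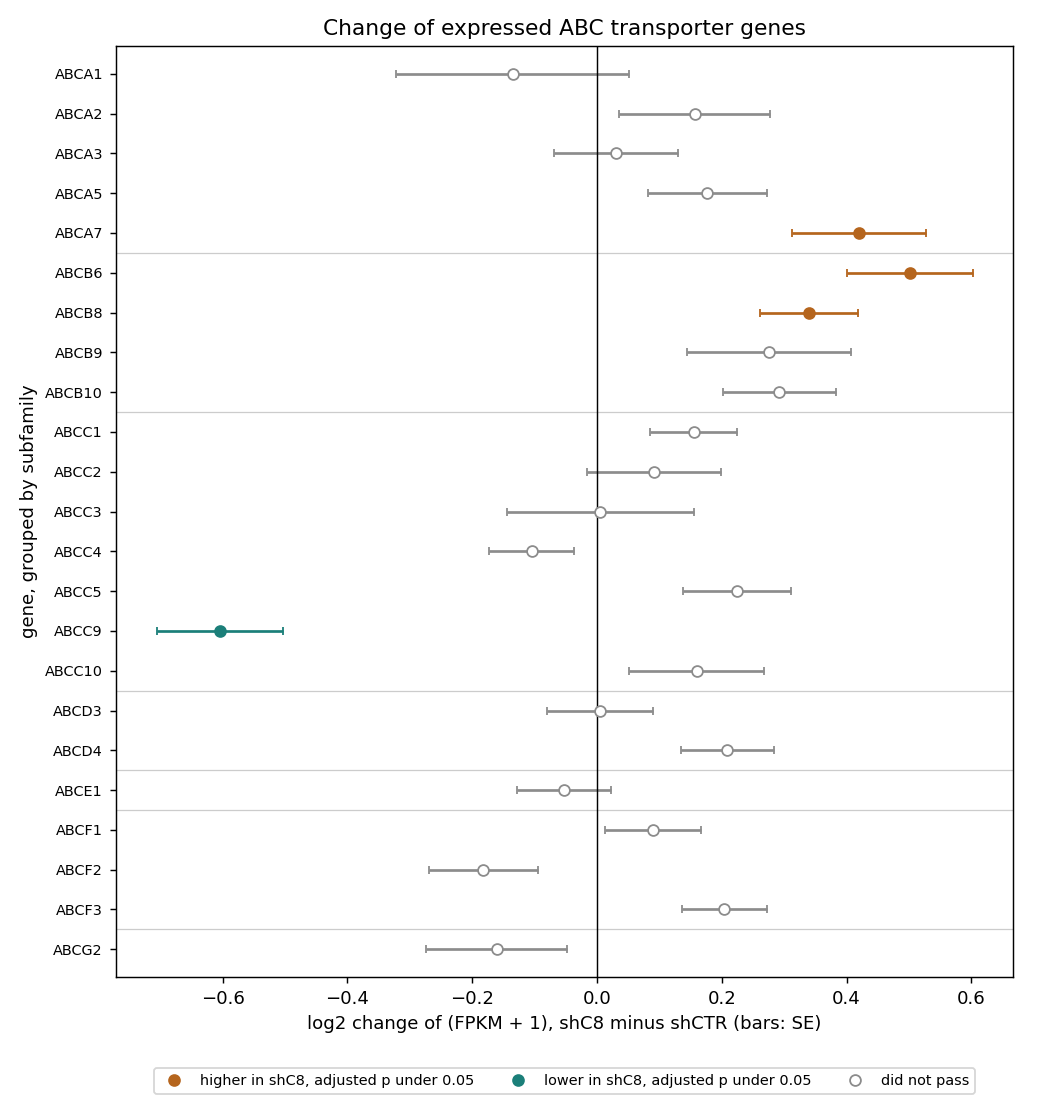
Change of log2(FPKM + 1), shC8 minus shCTR, for 23 of the 25 expressed ABC genes with its standard error, filled where the limma adjusted p was under 0.05. ABCA7, ABCB6 and ABCB8 lie right of 0 and ABCC9 lies left at -0.61, while the open points spread between -0.18 and 0.29.

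Summed over members, which leave out TAP1, TAP2 and CFTR, ABCB was higher in shC8 and the other subfamilies overlapped between groups. The ABCB sum was 38.0, 39.2 and 38.7 FPKM in shC8 1, 2 and 3, against 30.0, 31.4 and 30.0 FPKM in shCTR 1, 2 and 3. These are levels and carry no test. The ABCB means were 38.6 ± 0.572 FPKM in shC8 and 30.4 ± 0.801 FPKM in shCTR (SD, n = 3 each), a ratio of 1.27. The ABCA sum was 42.1 ± 8.42 FPKM in shC8 and 44.2 ± 9.12 FPKM in shCTR, with ABCA1 giving 78.9% of it. The ABCC sum was 49.5 ± 1.07 FPKM in shC8 and 52.1 ± 2.65 FPKM in shCTR. For ABCD it was 35 ± 2.21 FPKM in shC8 and 32.9 ± 2.11 FPKM in shCTR, and for ABCF 88.3 ± 6.83 FPKM in shC8 and 90.3 ± 2.94 FPKM in shCTR. ABCG summed to 3.84 ± 0.531 FPKM in shC8 and 4.39 ± 0.522 FPKM in shCTR. Summed over all members, shC8 had 371 ± 11.9 FPKM and shCTR 372 ± 3.74 FPKM, means that differ by less than either SD.

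**Figure D3:**
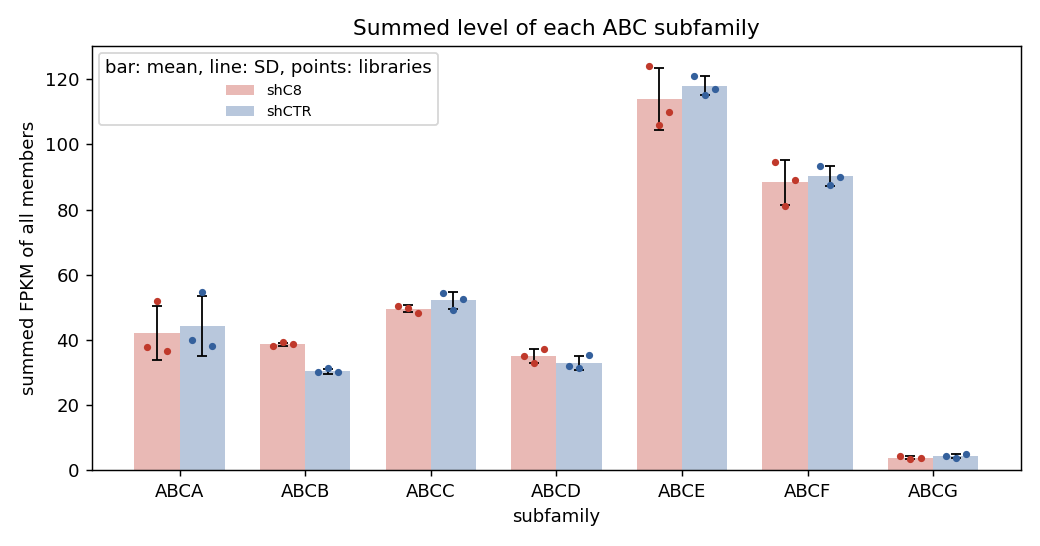
Summed FPKM of all members of each ABC subfamily, with bars for the mean of 3 libraries, lines for the SD and points for the libraries, shC8 left of shCTR. The ABCB bars stand at 38.6 and 30.4 FPKM with no overlap of their points, and the points of every other subfamily overlap.

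Both risen genes with an ABCB symbol encode carriers linked to mitochondria. TAP1, a peptide transporter gene of the same protein family read separately below, rose as well. ABCB6 encodes a porphyrin carrier found on mitochondria and on other membranes (chromosome 2, 219209766 to 219219017, minus strand, GRCh38). It had 10.6, 13.6 and 13.1 FPKM in shC8 1, 2 and 3, against 8.15, 9.03 and 8.18 FPKM in shCTR 1, 2 and 3. All shC8 libraries lay above all shCTR libraries, and shC8 1 was the lowest of its group. The means were 12.4 ± 1.62 FPKM in shC8 and 8.46 ± 0.501 FPKM in shCTR (SD, n = 3 each). The difference on the log2 scale was 0.50 (SE 0.101) with a limma adjusted p of 0.0222. The call ended without shC8 2, shC8 3, shCTR 1 or shCTR 3 (limma adjusted p between 0.0624 and 0.0848). A gene annotated in GENCODE 29 on the same strand, AC068946.2, shares exon bases with ABCB6, so reads could be split between them.

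ABCB8 encodes a carrier of the mitochondrial inner membrane (chromosome 7, 151028422 to 151047782, plus strand). It had 5.18, 5.09 and 4.98 FPKM in shC8 1, 2 and 3, against 3.48, 3.84 and 4.12 FPKM in shCTR 1, 2 and 3. The shC8 libraries lay close together and above every shCTR library. The log2 change was 0.34 (SE 0.0788, limma adjusted p = 0.0343). Of the 6 fits without 1 library the call held in 1, that without shCTR 3, and the limma adjusted p reached 0.103 without shC8 2. It was 0.0653 without shC8 1, 0.095 without shC8 3, 0.0994 without shCTR 1 and 0.0915 without shCTR 2.

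ABCB10, whose product sits in the mitochondrial inner membrane and serves heme synthesis, had 10.4, 11.4 and 9.36 FPKM in shC8 and 8.11, 9.01 and 7.72 FPKM in shCTR. Its groups did not overlap either. The log2 change of 0.29 had a limma adjusted p of 0.0767, and 0.0152 with the replicate block. ABCB9, which encodes a lysosomal peptide carrier, changed by 0.28 (SE 0.131, limma adjusted p = 0.206). Exons of ABCB9 overlap OGFOD2 and ARL6IP4 on the other strand, and whether counting used strand is not known from the sources used here.

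The drug pump P-glycoprotein was barely represented. ABCB1 was listed at 0.0606, 0.035 and 0.0333 FPKM in shC8 1, 2 and 3, against 0.0377, 0.0267 and 0.0236 FPKM in shCTR 1, 2 and 3. These groups overlapped at a level that gives no basis for a fold change. ABCB4, the phosphatidylcholine carrier gene next of kin to ABCB1, had 0.217, 0.151 and 0.265 FPKM in shC8 and 0.436, 0.283 and 0.46 FPKM in shCTR. Its shC8 values all lay lower, and in a fit without a filter on low values the limma adjusted p was 0.124. ABCB5 and the bile salt pump gene ABCB11 averaged under 0.1 FPKM.

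In ABCC, 6 MRP genes were expressed (ABCC1 to ABCC5 and ABCC10), none with a called change, while ABCC6, ABCC11 and ABCC12 stayed under 1 FPKM. ABCC1 had 6.26, 6.41 and 6.66 FPKM in shC8 1, 2 and 3, against 5.94, 5.39 and 5.73 FPKM in shCTR 1, 2 and 3. The groups did not overlap, yet the log2 change was only 0.15 (95% interval -0.01 to 0.32, limma adjusted p = 0.186). ABCC4, which encodes an exporter of cyclic nucleotides and prostaglandins and was the highest of the subfamily, had 23.7, 21.7 and 22.7 FPKM in shC8 and 24.8, 23.0 and 25.8 FPKM in shCTR. Its change was -0.10 (95% interval -0.27 to 0.06, limma adjusted p = 0.35).

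ABCC3, an organic anion exporter gene, had 6.3, 8.44 and 5.61 FPKM in shC8 and 7.62, 6.82 and 5.68 FPKM in shCTR, with a log2 change of 0.01 (95% interval -0.34 to 0.35, limma adjusted p = 0.986). For ABCC2, the gene of the canalicular MRP of liver, the values were 2.29, 1.87 and 1.9 FPKM in shC8 and 2.07, 1.56 and 1.88 FPKM in shCTR, a change of 0.09 (95% interval -0.16 to 0.34, limma adjusted p = 0.609). Both pairs of groups overlapped, and these intervals are not adjusted for the number of genes. ABCC5, another cyclic nucleotide exporter gene, had 4.6, 5.16 and 4.58 FPKM in shC8 and 4.35, 3.65 and 3.86 FPKM in shCTR, without overlap and with a change of 0.22 (limma adjusted p = 0.133). ABCC10, which encodes an exporter of taxanes, had 1.52, 1.69 and 1.73 FPKM in shC8 and 1.11, 1.6 and 1.42 FPKM in shCTR, a change of 0.16 (limma adjusted p = 0.362). ABCC6, the gene mutated in pseudoxanthoma elasticum, stayed under 1 FPKM with 0.656, 0.488 and 0.886 FPKM in shC8 and 0.785, 0.812 and 0.881 FPKM in shCTR, and its near-identical copies ABCC6P1 and ABCC6P2 could share its reads. ABCC11 was at 0.0164, 0.0365 and 0 FPKM in shC8 and 0.00588, 0.0196 and 0.00531 FPKM in shCTR.

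ABCC9 gave the largest change of the 25 expressed genes on the log2(FPKM + 1) scale. As a ratio of mean FPKM, ABCA7 changed more (1.77-fold higher, against 1.64-fold lower for ABCC9). ABCC9 encodes the sulfonylurea receptor SUR2, which forms ATP-sensitive potassium channels with a pore subunit and is not a drug pump (chromosome 12, 21797401 to 21942529, minus strand). ABCC9 had 4.94, 3.98 and 4.16 FPKM in shC8 1, 2 and 3, against 7.71, 6.37 and 7.37 FPKM in shCTR 1, 2 and 3. Every shC8 library lay below every shCTR library. The means were 4.36 ± 0.511 FPKM in shC8 and 7.15 ± 0.699 FPKM in shCTR (SD, n = 3 each), which puts shC8 at 61% of shCTR. The log2 change was -0.61 (SE 0.101, limma adjusted p = 0.0121). The deposited column names carry numbers that fall into a lower range (shC8 1, shCTR 1 and shCTR 3) and an upper range, whose meaning is not stated, and the change was -0.52 among the lower and -0.54 among the upper libraries. Without shC8 3 the change was -0.58 and the call ended (limma adjusted p = 0.0522). It held in the other 5 fits without 1 library.

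The potassium channel pore genes that pair with sulfonylurea receptors were low. KCNJ8 had 0.33, 0.403 and 0.548 FPKM in shC8 and 0.164, 0.219 and 0.515 FPKM in shCTR, with overlap. KCNJ11 was listed at 0 in 5 libraries and at 0.00976 FPKM in shC8 2, and ABCC8, the gene of the other sulfonylurea receptor SUR1, was listed at 0 in all 6.

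The longest annotated 3' UTR of ABCC9 (3643 bases, GENCODE 29) holds the word GGACAAA once, at position 1490. The word is shown because an earlier search of these same data picked it as over-represented among fallen genes, so its frequency is no independent evidence. It was found in 33.8% of 521 fallen genes, 8.68% of 749 risen genes and 13.9% of 10140 tested genes with an annotated 3' UTR. Among the 25 expressed ABC genes it was found in 5, among them ABCA2, ABCC3, ABCC4 and ABCC9, and of the 5 ABCC9 alone fell. Its part in the change of ABCC9 was not tested. The site, chr12:21799537-21799565 on the minus strand of GRCh38, reads with the word in capitals:
ABCC9 site: ttccacaagatGGACAAAaatggtccatg

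**Figure D4:**
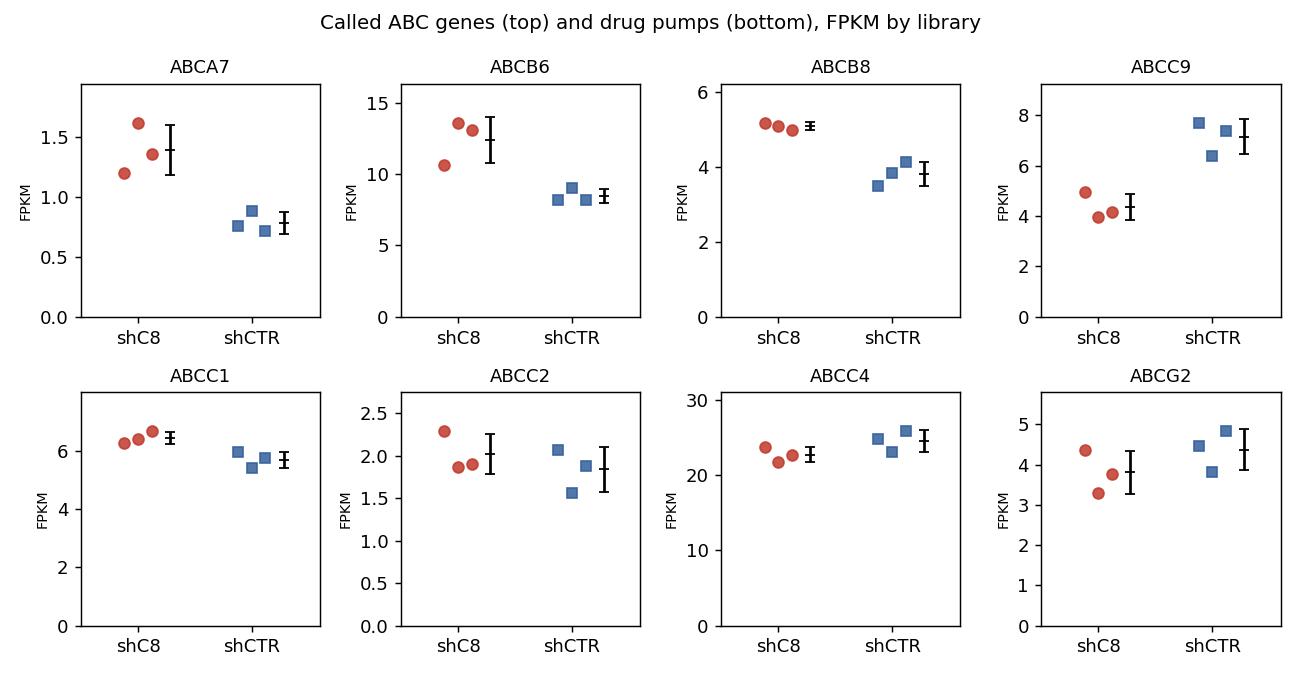
FPKM by library for the 4 called ABC genes (top row) and for the drug pump genes ABCC1, ABCC2, ABCC4 and ABCG2 (bottom row), shC8 left of shCTR in each panel, with the mean and SD beside the points and axes starting at 0. In the top row no shC8 point reaches the shCTR points, and in the bottom row the groups overlap except for ABCC1.

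ABCG2 was the single expressed member of its subfamily. It had 4.37, 3.3 and 3.77 FPKM in shC8 1, 2 and 3, against 4.47, 3.82 and 4.83 FPKM in shCTR 1, 2 and 3. The groups overlapped, and the log2 change of -0.16 did not pass (95% interval -0.42 to 0.10, limma adjusted p = 0.378). The sterol carrier genes ABCG1, ABCG4, ABCG5 and ABCG8 were nearly silent. ABCG1 was listed at 0.00966, 0.0093 and 0.00885 FPKM in shC8 and at 0 in all 3 shCTR libraries, for which no fold is given, and ABCG8 had a value in shCTR 1 alone (0.0121 FPKM).

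Among the lipid carriers of subfamily ABCA, ABCA1 was the most abundant and ABCA7 alone rose. ABCA1, which exports cholesterol and phospholipid to apolipoproteins, had 28.9, 40.5 and 27.7 FPKM in shC8 1, 2 and 3, against 32.2, 45.1 and 29.9 FPKM in shCTR 1, 2 and 3. In both groups the library numbered 2 was the highest, and the groups overlapped (log2 change -0.14, SE 0.187, limma adjusted p = 0.668, and 0.0771 with the replicate block). ABCA7 encodes a related phospholipid carrier (chromosome 19, 1040101 to 1065572, plus strand). It had 1.2, 1.62 and 1.36 FPKM in shC8, against 0.756, 0.884 and 0.712 FPKM in shCTR. No library of shCTR reached 1 FPKM, so ABCA7 passed the filter on low values through shC8. The groups did not overlap and the log2 change was 0.42 (SE 0.108, limma adjusted p = 0.0466).

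The call of ABCA7 held in 1 of the 6 fits without 1 library, that without shC8 1, and the limma adjusted p was 0.131 without shC8 2, 0.115 without shC8 3, 0.118 without shCTR 1, 0.0843 without shCTR 2 and 0.113 without shCTR 3. ABCA2, which encodes an endolysosomal lipid carrier abundant in brain, had 2.93, 3.81 and 2.94 FPKM in shC8 and 2.44, 3.27 and 2.66 FPKM in shCTR (log2 change 0.16, limma adjusted p = 0.422). ABCA3, the surfactant lipid carrier gene of lung, had 3.12, 3.7 and 2.96 FPKM in shC8 and 2.86, 3.44 and 3.2 FPKM in shCTR, with overlap and a change of 0.03 (limma adjusted p = 0.874). ABCA5 changed by 0.18 (limma adjusted p = 0.255). Low members included ABCA13, with 0.087, 0.243 and 0.169 FPKM in shC8, all under the 0.325, 0.52 and 0.31 FPKM of shCTR (limma adjusted p = 0.123 without a filter). The other 6 ABCA genes (ABCA4, ABCA6, ABCA8, ABCA9, ABCA10 and ABCA12) averaged under 0.1 FPKM.

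In ABCD, no gene passed the test. ABCD3, which carries branched-chain and other fatty acids, had 27.5, 24.7 and 28.9 FPKM in shC8 and 26.5, 25 and 29.3 FPKM in shCTR, a log2 change of 0.00 (95% interval -0.19 to 0.20, limma adjusted p = 0.978). ABCD4, which serves lysosomal export of cobalamin, had 4.31, 3.97 and 4.13 FPKM in shC8 and 3.51, 3.53 and 3.29 FPKM in shCTR (change 0.21, limma adjusted p = 0.109). ABCD2 was low, at 0.247, 0.297 and 0.191 FPKM in shC8 and 0.131, 0.137 and 0.232 FPKM in shCTR.

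None of the translation genes passed the test. ABCE1, which splits ribosomes after termination, had 124, 106 and 110 FPKM in shC8 1, 2 and 3, against 121, 115 and 117 FPKM in shCTR 1, 2 and 3 (log2 change -0.05, 95% interval -0.23 to 0.12, limma adjusted p = 0.68). ABCF2 had 53.0, 42.2 and 46.3 FPKM in shC8 and 53.9, 52.2 and 54.2 FPKM in shCTR, a change of -0.18 (limma adjusted p = 0.207). Without shC8 1, the shC8 library nearest to the shCTR level, the change of ABCF2 was -0.27 and passed (limma adjusted p = 0.0494). ABCF3, which like ABCF1 and ABCF2 acts on ribosomes, had 22.8, 20.8 and 23.3 FPKM in shC8 and 20.0, 18.5 and 19.2 FPKM in shCTR. It lay higher in shC8 without overlap, by 0.20 (limma adjusted p = 0.0937, and 0.0342 with the replicate block). ABCF1 changed by 0.09 (limma adjusted p = 0.478).

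Promoter sequence of the 4 called genes is shown to set the 3 risen genes beside the fallen one, though ABCA7 passed the filter through shC8. Each entry is the 250 bases before the annotated start, 5′ to 3′ on the gene's strand, from the RefSeq table of build GRCh38.p14. The windows are chr19:1039857-1040106 (plus strand) for ABCA7, chr2:219218959-219219208 (minus strand) for ABCB6, chr7:151028200-151028449 (plus strand) for ABCB8 and chr12:21941427-21941676 (minus strand) for ABCC9. The ABCC9 window lies wholly inside the gene span given by GENCODE (21797401 to 21942529, minus strand). The RefSeq start of ABCC9 thus lies inside that span, and the starts of single GENCODE transcripts were not compared. The windows of the 3 risen genes each run across the start of the GENCODE span. Capitals mark matches on either strand to the CCAAT box (CCAAT), the GC box (GGGCGG), the E-box (CACGTG) and the antioxidant response element (TGACNNNGC). The kappaB consensus of NF-kB and the AP-1 site (TGANTCA) were searched too, and neither was found in these 4 windows.
ABCA7 promoter: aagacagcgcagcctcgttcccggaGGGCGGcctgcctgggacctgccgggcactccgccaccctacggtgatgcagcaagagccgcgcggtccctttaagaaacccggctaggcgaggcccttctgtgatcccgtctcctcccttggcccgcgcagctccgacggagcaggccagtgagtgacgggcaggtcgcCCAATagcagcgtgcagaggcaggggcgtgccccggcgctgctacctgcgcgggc
ABCB6 promoter: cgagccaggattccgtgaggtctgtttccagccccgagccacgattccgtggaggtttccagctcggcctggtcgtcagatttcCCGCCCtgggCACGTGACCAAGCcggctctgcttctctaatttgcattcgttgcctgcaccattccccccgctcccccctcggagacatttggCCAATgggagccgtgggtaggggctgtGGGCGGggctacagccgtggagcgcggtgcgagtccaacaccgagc
ABCB8 promoter: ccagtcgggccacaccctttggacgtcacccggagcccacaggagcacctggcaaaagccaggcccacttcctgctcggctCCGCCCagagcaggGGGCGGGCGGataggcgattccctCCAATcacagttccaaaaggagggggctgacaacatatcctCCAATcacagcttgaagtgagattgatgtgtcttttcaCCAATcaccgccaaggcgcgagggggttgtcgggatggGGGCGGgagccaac
ABCC9 promoter: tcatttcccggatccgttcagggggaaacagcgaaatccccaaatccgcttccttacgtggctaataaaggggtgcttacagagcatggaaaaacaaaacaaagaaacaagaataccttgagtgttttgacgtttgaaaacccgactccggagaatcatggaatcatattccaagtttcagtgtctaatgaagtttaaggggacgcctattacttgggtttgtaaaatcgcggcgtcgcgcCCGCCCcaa

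The CCAAT box was found in the windows of ABCA7, ABCB6 and ABCB8 and not in that of ABCC9. Of the 25 expressed ABC genes 21 had a promoter entry, and 4 of these 21 held it, the other being ABCF2, whose change was -0.18. The share was 35.9% among 8273 tested genes with an entry and 32.0% among all 35116 windows of the same length. The GC box was found in 16 of 21 ABC genes, against 68.2% of the tested genes and 42.6% of all windows. In ABCB6 an E-box and an antioxidant response element share bases, so their capitals run together. The antioxidant response element was found in 6 of 21 ABC genes (12.4% of the tested genes and 10.9% of all windows) and the E-box in 3 (9.25% and 6.34%). The kappaB consensus was found in 1, ABCF1 (6.02% and 5.21%), and the AP-1 site in 0 (3.82% and 6.57%). The GC content was 70.4%, 64.4% and 61.6% in the windows of ABCA7, ABCB6 and ABCB8, and 46.0% in that of ABCC9. These matches describe letters and not bound sites. For ABCC9 the bases before the start of the GENCODE span were not searched, so its contrast with the risen genes holds for this RefSeq window only.

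The family members with other symbols included 1 rise. TAP1, a subunit of the peptide transporter of antigen presentation, had 16.2, 14.6 and 14.4 FPKM in shC8 1, 2 and 3, against 10.4, 10.8 and 11.1 FPKM in shCTR 1, 2 and 3. Its groups did not overlap, the log2 change was 0.45 (SE 0.0701, limma adjusted p = 0.01), and the call held in all 6 fits without 1 library. Its partner TAP2 had 11.3, 9.09 and 9.81 FPKM in shC8 and 10.2, 8.95 and 9.01 FPKM in shCTR (change 0.09, limma adjusted p = 0.562). CFTR, the chloride channel gene, stayed under 0.1 FPKM in all libraries. Of 8 genes that load peptides with TAP, B2M, the light chain gene of class I molecules, rose by 0.53 (limma adjusted p = 0.0232) and 7 did not pass, with 2 rises under the replicate block. Over all tested genes 7.14% rose, and 16.1% under the block. The call of B2M held in 1 of the 6 fits without 1 library, that without shC8 1.

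Genes that work beside the mitochondrial ABCB carriers included rises and falls, as did all tested genes (7.14% and 4.94%). Of 35 tested genes of iron-sulfur cluster and heme synthesis, 4 rose, 2 fell and 29 did not pass, with a median log2 change of -0.05 against 0.0376 over all tested genes. With the replicate block 5 rose and 3 fell, where 16.1% and 10.6% of all tested genes did. GLRX5, a glutaredoxin gene of mitochondrial cluster transfer, had 34.8, 28.6 and 27.3 FPKM in shC8 and 72.3, 65.6 and 65.8 FPKM in shCTR, a fall of -1.15 (limma adjusted p = 0.00156) that held in all 6 fits without 1 library. FDX1, a ferredoxin gene, fell by 0.52 (limma adjusted p = 0.0281). The word GGACAAA was found in the 3' UTR of FDX1 and not in that of GLRX5, nor in those of NFE2L2, NPC1 and NR1H3, the other fallen companion genes named. CIAPIN1 and NARFL, both of cytosolic cluster assembly, rose by 0.43 (limma adjusted p = 0.023) and 0.38 (limma adjusted p = 0.0272). The other rises were FECH, the last enzyme of heme synthesis, by 0.33 (limma adjusted p = 0.0227) and MMS19 by 0.28 (limma adjusted p = 0.0445). Of the 6 fits without 1 library the call held in 2 for FDX1, 3 for CIAPIN1, 1 for NARFL, 2 for FECH and 0 for MMS19.

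**Figure D5:**
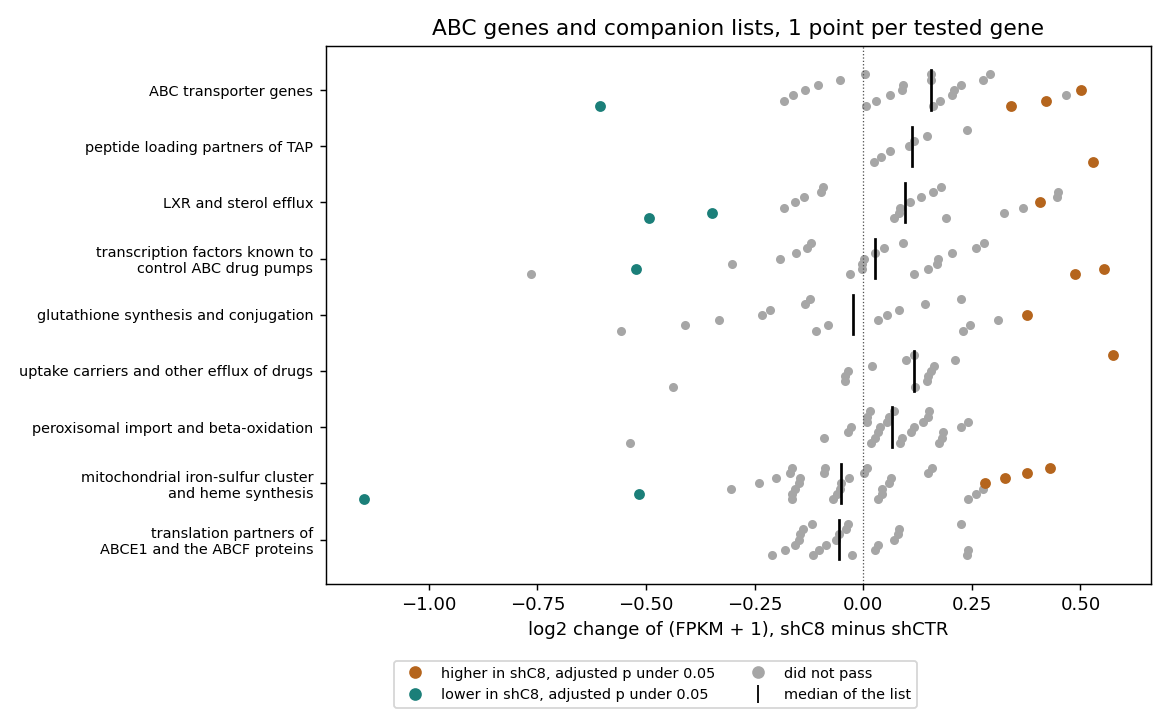
Change of log2(FPKM + 1), shC8 minus shCTR, for each tested gene of the ABC family and of 8 companion lists, 1 point per gene, coloured where the limma adjusted p was under 0.05, with a black line at each median. GLRX5 lies farthest left at -1.15, and no point of the peroxisomal or translation list passed.

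Sterol genes were called in the main fit at a share of the same order as the 12.1% of all tested genes. For transcription factors that control ABC pumps in other settings no share is read, since FOXO1 entered the test through shC8. Under the replicate block 26.6% of all tested genes passed, 16.1% as rises and 10.6% as falls. Of 20 tested genes of sterol efflux and of the sterol-sensing LXR receptors, 1 rose, 2 fell and 17 did not pass (median 0.10), with 6 rises and 2 falls under the replicate block. NPC1, which exports cholesterol from lysosomes, fell by 0.49 (limma adjusted p = 0.0328) and NR1H3, the LXR alpha gene, fell by 0.35 (limma adjusted p = 0.0341). Of 23 tested transcription factor genes, 2 rose, 1 fell and 20 did not pass (median 0.03), with 4 rises and 3 falls under the block. NFE2L2, which encodes the oxidative stress factor NRF2, had 22.8, 21.8 and 28.6 FPKM in shC8 and 34.8, 32.3 and 39.1 FPKM in shCTR, a log2 change of -0.52 (limma adjusted p = 0.0298). FOXO1 rose by 0.55 (limma adjusted p = 0.02). It averaged 1.47 FPKM in shC8 and 0.683 FPKM in shCTR, so it passed the filter through shC8. Its call adds nothing to the count. NR1I2, the gene of the xenobiotic receptor PXR, was listed at 0 in every library. Of the 6 fits without 1 library the call held in 2 for NPC1 and FOXO1, and in 1 for NR1H3 and NFE2L2.

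Genes of glutathione conjugation, whose products MRPs export, and of drug uptake gave 1 call each, against 12.1% of all tested genes and 26.6% under the replicate block. Of 18 tested glutathione genes, GSTT1 rose by 0.38 (limma adjusted p = 0.0235) and 17 did not pass (median -0.02), with 3 rises and 4 falls under the replicate block. Of 14 tested uptake carriers and other efflux genes, ATP7A, a copper pump gene linked to platinum resistance, rose by 0.58 (limma adjusted p = 0.0135) and 13 did not pass (median 0.12), with 1 rise and 1 fall under the block. ATP7A had 6.85, 8.14 and 8.01 FPKM in shC8 and 4.41, 4.6 and 5.45 FPKM in shCTR. Without 1 library its call ended for shC8 2 and shC8 3, and that of GSTT1 for shC8 2, shC8 3, shCTR 2 and shCTR 3.

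No gene passed among 26 of peroxisomal import and beta-oxidation (median 0.07) or among 23 translation partners of ABCE1 and the ABCF proteins (median -0.06). Over all tested genes 12.1% passed. At an unadjusted limma p under 0.05 there were 3 rises and 1 fall in the peroxisomal list and 2 rises and 3 falls in the translation list. The share of all tested genes at that unadjusted threshold is not given here, so these counts have no background to be read against. With the replicate block the counts after adjustment were 2 rises and 1 fall, and 2 rises and 2 falls, where 26.6% of all tested genes passed.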

How the data were processed

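RNA was sequenced from 6 U87 cultures, 3 shC8 and 3 shCTR, grouped by sample titles. Per the labels' protocols, the kit was a stranded total RNA kit with ribosomal depletion, after DNase treatment. The authors deposited FPKM per gene symbol and library, and every sample column was used. Per the submitters' processing notes, TopHat, Cufflinks and Cuffdiff were run with build hg38. Tool versions, annotation and strand setting are not known from the sources used here. FPKM depends on gene length and a library total, so abundant genes shift the others, and a 0 can be a failed estimate. No count model was run, and depth is unknown.

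Genes averaging at least 1 FPKM were fitted on log2(FPKM + 1) with limma 3.58.1 (R 4.3.3, mean trend, two-sided, Benjamini-Hochberg). This scale understates changes of low genes. What separates the cultures was not stated, so the p-values reflect only how far these samples differ, which may be technical. The ABC members, companion lists, motifs and the 3' UTR word were chosen with earlier results of these data known. Expressed members are named, apart from some genes that are not reported here. Values by library are given for called members (also where an alternative alone called them), drug pumps, the 2 highest members of each subfamily, and members under 1 FPKM that reached 0.3 FPKM or did not overlap. Up to 4 called genes per companion list are named. FECH, MMS19 and other genes outside this rule were chosen after their values were seen. All 45 symbols were found in GENCODE 29 (GRCh38), the source of gene coordinates.

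Deviations of same-numbered libraries from their group means correlated at 0.397, 0.266 and 0.291 across genes. The replicate numbers may thus pair samples, but no label pairs them. Correlations of differently numbered libraries are not given here. The main fit has no block, so calls under the block are given beside it. In simulated data of 11598 genes for shC8 against shCTR, 62% of 100 genes shifted by 0.5 and 91% of 100 genes shifted by 1 (log2) were recovered. Of the calls 4.97% were false. The simulation shifted far fewer genes than were called here and drew libraries independently, so these rates need not hold for the real fit. Alternatives were other pseudocounts, filters, scalings, moderation, the block, a term for the column number range, and each library left out.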

Additional observations from a re-analysis of the deposited data

How the results depend on the processing

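The count of ABC rises, 3 as reported, was 1 when low genes were kept in the fit and 1 under quantile normalization. It was 1 with a term for the column number range and 6 with the replicate block. The count was also 1 when a mean of 5 FPKM was required, a limit that left ABCA7 and ABCB8 untested. ABCB6 stayed called there (limma adjusted p = 0.0203). Without 1 library the count lay between 0 and 2. ABC falls lay between 0 and 2 without 1 library, against 1. The call of ABCA7 ended at a pseudocount of 0.1 (limma adjusted p = 0.0536) and under median-of-ratios scaling (0.0584), those of ABCA7 and ABCB8 under quantile normalization (0.0726 and 0.0574) and the range term (0.0725 and 0.0539), and those of ABCB6 and ABCB8 without a filter (0.0533 and 0.0724). The fall of ABCC9 passed in every alternative except that without shC8 3. Of all tested genes, 3086 were called with the replicate block and 477 to 1346 without 1 library, against 1401. The block added 3 rises, ABCB10 and ABCF3 among them, and changed no other ABC call. CASP8 passed in all.

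The median change of the ABC genes, 0.155, was 0.0175 without a filter (0.0154 over all tested genes), 0.00556 with a minimum of 5 FPKM (0.0283) and 0.0776 under quantile normalization (0.004). With at least 5 FPKM as the limit, 13 ABC genes were expressed. Signs turned only for genes near 0 that never passed: ABCA3 (-0.038 quantile, -0.00432 range term, -0.0433 to 0.0812 without 1 library), ABCC3 (-0.046 quantile, -0.0281 median-of-ratios, -0.0207 range term, -0.142 to 0.115), ABCD3 (-0.00259 quantile, -0.0325 median-of-ratios, -0.0442 to 0.0664 without 1 library) and ABCA1 (-0.303 to 0.0402 without 1 library). The log2 ratio of summed ABCB was 0.305 under median-of-ratios scaling. Without the top member of a subfamily the ratio was 0.253 for ABCB (0.344 with all members) and 0.422 for ABCD (0.0902). It turned to 0.157 for ABCF (-0.0328) and to 0.71 for ABCG (-0.194), whose other members are near 0. Without shC8 2 the ratio of ABCF turned to 0.0251. For ABCA the ratio turned to 0.189 without ABCA1, to 0.11 without shCTR 2 and to 0.0182 without shC8 3, against -0.0719. The causes were not tested. Changes of genes under 1 FPKM are understated on this scale, and no ABC gene averaging under 1 FPKM passed in the fit without a filter.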
